A study of Oryctolagus cuniculus with 24 samples.

Results

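The protein kinase C (PKC) isoforms PRKCA, PRKCB, PRKCD, PRKCE, PRKCH, PRKCI, PRKCQ and PRKCZ were followed in rabbit peripheral blood mononuclear cells (PBMCs), the lymphocytes and monocytes of the blood. They were chosen by gene name, as the family that holds the kinases on which PMA acts. Of these 8 isoforms, 6 had a probe and were measured, among 28911 genes in all. PRKCQ and PRKCZ were matched to no probe by name and were not analysed here.

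PBMCs from 4 rabbits (New Zealand White, adult, female), here called rabbit 1, rabbit 2, rabbit 4 and rabbit 5, were cultured for 4 h (T4) or 24 h (T24). The cells were mock-stimulated with buffer, stimulated with LPS, a bacterial cell wall lipopolysaccharide, at 1 µg/mL, or stimulated with PMA-Ionomycin, which combined PMA at 10 ng/mL and ionomycin at 1 µg/mL. Every rabbit gave 1 culture to each of the 6 groups, and each culture was measured on an Agilent array of its own, so that every group had 4 arrays. Since PMA and ionomycin were always given together, their effects cannot be told apart.

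PKC enzymes are serine/threonine kinases that pass on signals from receptors on the cell surface. Phospholipase C splits a membrane lipid into diacylglycerol, which recruits PKC to the membrane, and a soluble messenger that releases calcium. Conventional isoforms (PRKCA and PRKCB here) respond to diacylglycerol and calcium, calcium-independent isoforms (PRKCD, PRKCE, PRKCH, PRKCQ) to diacylglycerol alone, and atypical isoforms (PRKCI, PRKCZ) to neither. PMA is a phorbol ester that stands in for diacylglycerol, and ionomycin carries calcium into the cell. In lymphocytes PKC is known for relaying antigen receptor signals to NF-kappaB, and lasting phorbol ester treatment is known to deplete PKC proteins, which the arrays do not measure.

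Levels are log2 signals relative to the median spot of the array, given as mean ± SD over 4 rabbits, and differences are differences of these levels. A gene was called differentially expressed (DE) when its adjusted p in the limma fit across all genes was under 0.05. Levels of different isoforms came from different probes and were not set against each other. On the 24 arrays, 51.4 to 62.3% of spots (median 59.1%) were well above background. The lowest shares were those of the rabbit 4 LPS array and the rabbit 2 PMA-Ionomycin array at T4. The arrays lay on 3 slides of 8, each with all 6 groups. Of the marker genes found, 6 of 7 for B cells, 8 of 12 for T cells and 8 of 12 for monocytes were well above background on all 24 arrays. No NK cell marker of the list was found. In these bulk samples, fewer cells of a type and less RNA per cell cannot be told apart.

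The sequences that stand for each isoform are shown because they decide which transcript a value measures. Each is a 60-base probe, 5′ to 3′, and capitals mark the run that all probes of the gene, or of the PRKCB upstream set, have in common. Positions are on oryCun2, the build of the files. PRKCA had 1 probe on the minus strand of chromosome 19, chr19:50627210-50627269. PRKCH had 1 probe on the plus strand of chromosome 20, chr20:9088230-9088289. The 5 PRKCD probes overlapped by all but a few bases, and the one shown covers chr9:20166990-20168312 on the plus strand, a span of 1323 bases that shows that it crosses an exon junction. The 5 PRKCE probes also overlapped, and the one shown spans 22018 bases, chr2:140035354-140057371 on the minus strand, again across a junction. The 3 PRKCI probes followed each other on the plus strand of chromosome 14, chr14:65217981-65218541, and are shown in that order. PRKCB was measured by 3 overlapping upstream probes (middle probe chr6:14860049-14860108) and 3 probes at the 3′ end (chr6:14885378-14885557), both on the plus strand. The files assign the former to transcript variant I and the latter to variant II, but the upstream probes lie in the kinase domain, which both variants encode, and can read either. The study's list of added genes names 1 more PRKCB probe, which carries no position and was kept out of the PRKCB average.
PRKCA: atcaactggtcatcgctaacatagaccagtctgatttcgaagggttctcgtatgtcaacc
PRKCB upstream probe: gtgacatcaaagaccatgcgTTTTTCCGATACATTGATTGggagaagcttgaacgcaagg
PRKCB added probe: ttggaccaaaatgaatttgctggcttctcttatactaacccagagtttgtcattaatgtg
PRKCD: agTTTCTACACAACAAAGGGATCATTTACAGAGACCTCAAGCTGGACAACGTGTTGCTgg
PRKCE: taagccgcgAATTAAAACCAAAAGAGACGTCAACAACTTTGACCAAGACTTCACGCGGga
PRKCH: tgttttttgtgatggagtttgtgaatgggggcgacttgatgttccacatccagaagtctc
PRKCI probe 1: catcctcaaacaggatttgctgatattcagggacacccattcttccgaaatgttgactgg
PRKCI probe 2: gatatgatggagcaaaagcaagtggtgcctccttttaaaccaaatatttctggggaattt
PRKCI probe 3: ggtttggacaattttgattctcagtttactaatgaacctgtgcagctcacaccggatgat
The shared run was 56 bases for PRKCD, 49 for PRKCE and 20 for the upstream PRKCB set, so that the probes within each set overlap and are not independent measurements. Between probes of different isoforms, the longest run in common on either strand was 9 bases. The closest ungapped match over at least 40 bases reached 65.0% identity, between the PRKCA probe and the added PRKCB probe. Probes were not compared with whole transcripts, so this does not show that a probe reads its own isoform alone.

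At T24 PMA-Ionomycin lowered 3 isoforms, PRKCD, PRKCB and PRKCH, and raised PRKCA, while LPS raised PRKCH alone. At T4 no isoform was DE after either stimulation. After PMA-Ionomycin at T24, 4 of 6 isoforms were DE, where 33.6% of all genes tested were. After LPS at T24, 1 of 6 was DE, where 1.22% of all genes were. At T4 the count was 0 of 6 both for PMA-Ionomycin, where 22.8% of all genes were DE and 0 isoforms had an unadjusted p under 0.05, and for LPS, where 1.02% of all genes were DE and 1 isoform, PRKCD, had an unadjusted p under 0.05. LPS and PMA-Ionomycin were compared with the same mock-stimulated samples.

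**Figure D1:**
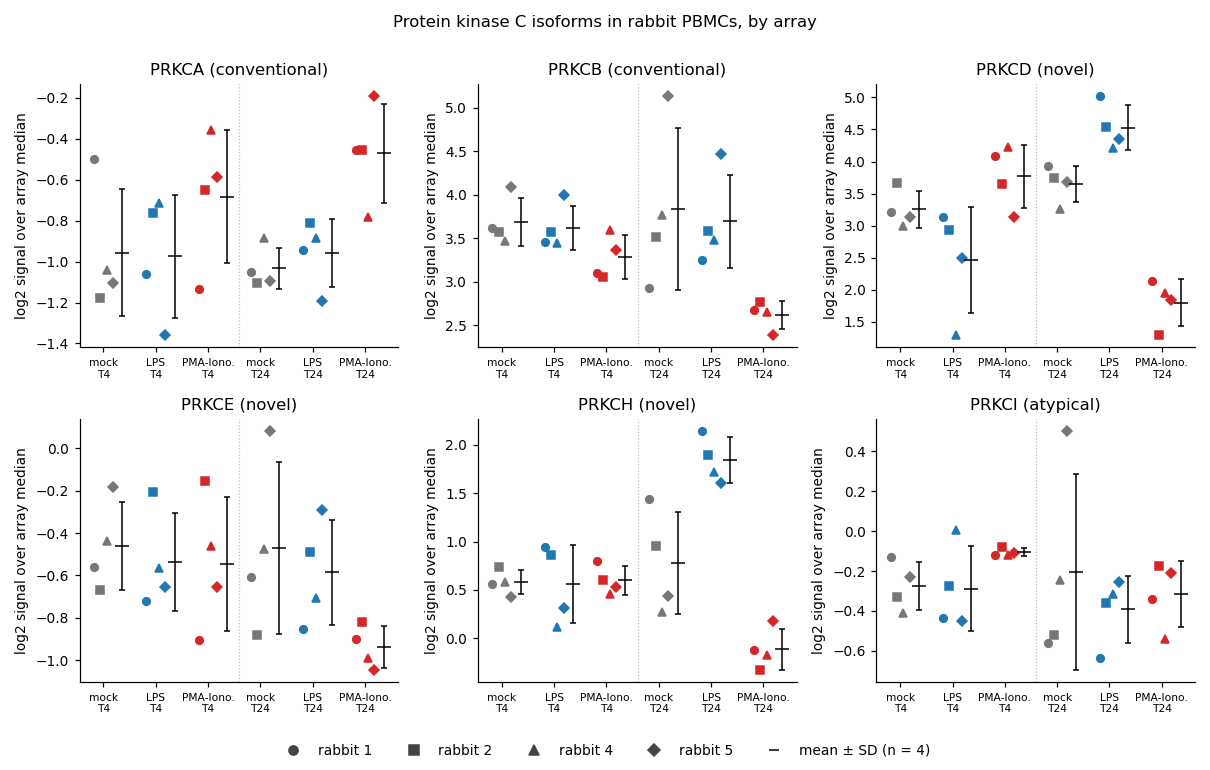
Level of each PKC isoform on every array (log2 signal over the array median, y axis) in the 6 groups (x axis), with 1 symbol per rabbit and the mean ± SD of 4 rabbits as a bar. PRKCD, PRKCB and PRKCH were lowest after PMA-Ionomycin at T24, and PRKCH was highest after LPS at T24.

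PRKCD encodes PKC delta, a calcium-independent isoform known for roles in B cell tolerance and in the death of activated cells. In mock-stimulated PBMCs its level was 3.22, 3.66, 3.0 and 3.14 at T4 and 3.92, 3.74, 3.26 and 3.68 at T24 (rabbits 1, 2, 4 and 5, here and in all such lists). After PMA-Ionomycin at T24 it was 2.13, 1.29, 1.95 and 1.83. All 4 of these arrays lay below all 4 mock-stimulated arrays of T24, as was the case for 32.2% of all genes in one direction or the other. The mean fell from 3.65 ± 0.28 to 1.80 ± 0.36, a log2 difference of -1.85 (SE 0.31, adjusted p = 3.4e-05), a 3.61-fold decrease seen in 4 of 4 rabbits. All 5 probes were DE, with differences from -1.89 to -1.77. Within slides 1, 2 and 3 the differences were -1.34, -2.63 and -1.85.

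At T4 the level of PRKCD after PMA-Ionomycin was 4.08, 3.64, 4.22 and 3.13, with a mean 0.52 above mock (SE 0.31, adjusted p = 0.295, 95% interval -0.12 to 1.15) and overlapping groups. This difference was 0.28 without rabbit 4 (adjusted p = 0.618) and 0.32 after quantile normalization (adjusted p = 0.521). The PMA-Ionomycin difference from mock therefore differed between the times, by -2.37 (SE 0.44, adjusted p = 0.000237), where 22.5% of all genes had such an interaction. After LPS the level was 3.14, 2.93, 1.30 and 2.50 at T4 and 5.02, 4.54, 4.21 and 4.35 at T24. The rabbit 4 value at T4 was the lowest of the group and came from the array with the smallest share of spots well above background. The LPS difference from mock was -0.79 at T4 (SE 0.31, adjusted p = 0.226) and 0.88 at T24 (SE 0.31, adjusted p = 0.224), and neither was DE, although the T24 groups did not overlap, as was the case for 4.35% of all genes. The T4 value was -0.40 (adjusted p = 0.717) without that rabbit 4 array, -0.48 (adjusted p = 0.751) without rabbit 4 and -0.475 (adjusted p = 0.434) with array weights. The difference between the 2 LPS effects was 1.66 (SE 0.44, adjusted p = 0.048), and 1.94% of all genes had such an interaction. This call was lost when that rabbit 4 array alone was left out (1.27, adjusted p = 0.0848) and when any 1 of the 4 rabbits was left out (1.33 to 1.83, adjusted p from 0.0795 to 0.248). Compared with LPS directly, PMA-Ionomycin gave a higher PRKCD level at T4, by 1.30 (SE 0.31, adjusted p = 0.0022), where 26.7% of all genes were DE, and a lower one at T24, by -2.73 (SE 0.31, adjusted p = 1.3e-07). The T4 groups overlapped, and without rabbit 4 the difference was 0.76 (adjusted p = 0.0544).

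PRKCH encodes PKC eta, a calcium-independent isoform found in epithelia and in immune cells. Its level in mock-stimulated PBMCs was 0.56, 0.73, 0.585 and 0.43 at T4 and 1.44, 0.95, 0.27 and 0.44 at T24. After LPS at T24 it rose to 2.15, 1.90, 1.72 and 1.61, above every mock-stimulated array. The mean was 1.84 ± 0.23 against 0.775 ± 0.528, a log2 difference of 1.07 (SE 0.21, adjusted p = 0.00701), or 2.10-fold, and the 4 rabbits differed by 0.71 to 1.45. Within slides the differences were 1.79, 0.31 and 0.78. The call was lost in a fit of those mock-stimulated and LPS arrays alone (adjusted p = 0.194), with the processed signal (1.38, adjusted p = 0.058), with rabbit 2 left out (1.11, adjusted p = 0.101) and with rabbit 4 left out (0.94, adjusted p = 0.149).

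After PMA-Ionomycin at T24 the level of PRKCH was -0.12, -0.33, -0.18 and 0.18, below all mock-stimulated arrays of that time, and 3 of these 4 arrays were well above background. The mean of -0.11 ± 0.21 was lower than mock on the log2 scale (difference -0.89, SE 0.21, adjusted p = 0.00156), in 4 of 4 rabbits, with -0.475, -1.77 and -0.95 within the slides. With the processed signal it was -1.77 (adjusted p = 0.000282). At T4 it did not pass the test after PMA-Ionomycin (0.80, 0.61, 0.46 and 0.53, difference 0.02, adjusted p = 0.978) or after LPS (0.95, 0.87, 0.12 and 0.32, difference -0.02, adjusted p = 0.98). The change of the PMA-Ionomycin effect from T4 to T24 was -0.91 (SE 0.30, adjusted p = 0.0281). It did not pass the test without rabbit 1 (-0.61, adjusted p = 0.193) or without rabbit 2 (-0.83, adjusted p = 0.166), and was -1.61 (adjusted p = 0.0202) with the processed signal. For LPS this change was 1.08 (SE 0.30, adjusted p = 0.058), which did not pass, but with the rabbit as a block the same value passed (adjusted p = 0.0148). PMA-Ionomycin and LPS stood 1.96 apart at T24, with PMA-Ionomycin lower (difference -1.96, SE 0.21, adjusted p = 5.65e-08), where 36.1% of all genes were DE, and -3.15 with the processed signal.

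PRKCB encodes PKC beta, a conventional isoform that B cells need for antigen receptor signaling. In mock-stimulated PBMCs its level was 3.61, 3.57, 3.47 and 4.09 at T4 and 2.92, 3.51, 3.76 and 5.13 at T24. The rabbit 5 value at T24 was far above the rest of that group. After PMA-Ionomycin at T24 the level was 2.68, 2.76, 2.645 and 2.38, below every mock-stimulated array. The mean fell from 3.83 ± 0.94 to 2.62 ± 0.16, a log2 difference of -1.22 (SE 0.31, adjusted p = 0.0034), and the rabbits ranged from -2.75 to -0.25. Without rabbit 5 the difference was -0.70 (adjusted p = 0.00565), and without that single mock-stimulated array it was -0.78 (adjusted p = 0.0139). Within slides it was -1.77, -0.16 and -0.998. At T4 the PMA-Ionomycin level of 3.09, 3.06, 3.60 and 3.37 overlapped with mock (difference -0.41, SE 0.31, adjusted p = 0.47). The LPS levels of 3.46, 3.57, 3.45 and 3.99 at T4 and 3.25, 3.58, 3.48 and 4.47 at T24 differed from mock by -0.07 and -0.14 (adjusted p = 0.936 and 0.979, 95% intervals -0.72 to 0.58 and -0.79 to 0.51). Compared with LPS at T24, PRKCB was lower after PMA-Ionomycin in 4 of 4 rabbits (difference -1.08, SE 0.31, adjusted p = 0.00807). In that comparison 36.1% of all genes were DE. The PRKCB call was lost with the 3′ end probes alone (-0.63, adjusted p = 0.123), and the difference was -1.62 with the processed signal.

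PRKCB makes transcripts of more than 1 kind that differ at their 3′ end and encode PKC beta I and beta II. Of the probes, the added one lies in the coding end of beta I, those at the 3′ end belong to the variant II transcript, and the upstream ones are common to both. The upstream probes went from 1.67 ± 1.07 in mock to 0.24 ± 0.08 after PMA-Ionomycin at T24, with values of 0.33, 0.26, 0.21 and 0.15 on the PMA-Ionomycin arrays and 0.86, 1.16, 1.40 and 3.23 in mock, and these groups did not overlap. In the two-sided exact permutation test the difference of -1.43 had p = 0.0286, the smallest that 4 arrays against 4 can give, and an adjusted p of 0.1 over 7 comparisons. Without the rabbit 5 mock-stimulated array it was -0.91. The 3′ end probes had 5.025, 5.26, 5.08 and 4.62 after PMA-Ionomycin and 4.99, 5.86, 6.12 and 7.04 in mock. These groups overlapped through the rabbit 1 mock-stimulated array alone (difference -1.01, exact permutation p = 0.114, adjusted p = 0.2). Without the rabbit 5 mock-stimulated array the 3′ end difference was -0.66. The distance between the 2 sets at T24 was 0.42 larger after PMA-Ionomycin than in mock, which did not pass (exact permutation p = 0.2, adjusted p = 0.35). It was 4.69, 5.01, 4.86 and 4.47 after PMA-Ionomycin and 4.12, 4.70, 4.72 and 3.81 in mock. It was thus larger in every rabbit, a pairing that the permutation test does not use. Compared with LPS at T24 the distance was 0.89 larger after PMA-Ionomycin (exact permutation p = 0.0286, adjusted p = 0.2). At T4 the 3′ end probes did not overlap between PMA-Ionomycin (5.09, 5.15, 5.26 and 5.24) and mock (5.78, 5.7, 5.53 and 5.83), with a difference of -0.53 (exact permutation p = 0.0286, adjusted p = 0.1). In the fit of single probes, all 6 were DE between PMA-Ionomycin and mock at T24, with differences from -1.52 to -1.0, and 0 were at T4. The added probe also was lower after PMA-Ionomycin at T24 (difference -1.16, SE 0.31, adjusted p = 0.00477), in 3 of 4 rabbits. At T4 its difference of -0.40 did not pass (adjusted p = 0.474).

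**Figure D2:**
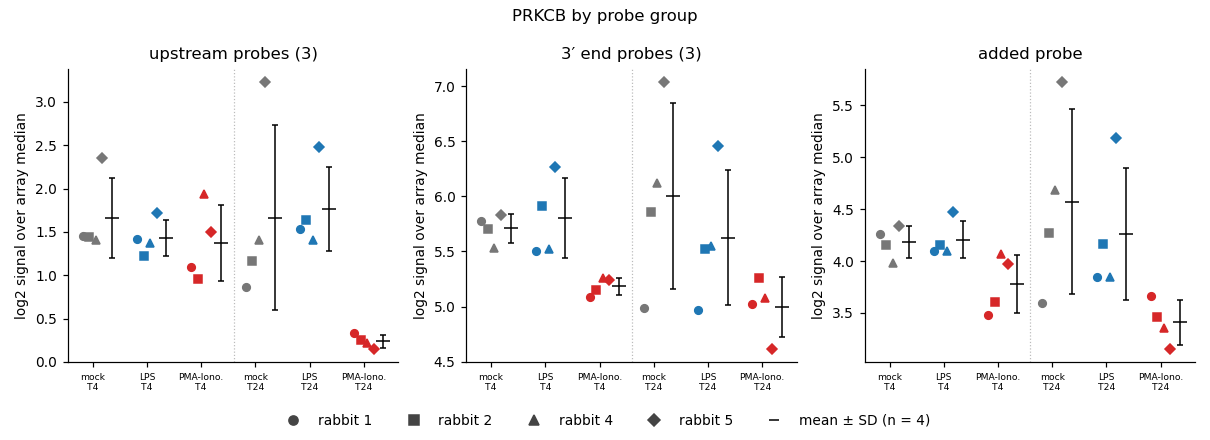
PRKCB signal on every array by probe group: the mean of the 3 upstream probes, the mean of the 3 probes at the 3′ end, and the added probe (each as log2 signal over the array median, y axes), in the 6 groups (x axis), with the mean ± SD of 4 rabbits as a bar. After PMA-Ionomycin at T24 the values of the upstream probes lay between 0.15 and 0.33, below all mock-stimulated arrays, while those at the 3′ end overlapped with mock through 1 mock-stimulated array (4.99).

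PRKCA encodes PKC alpha, a widely expressed conventional isoform. Its probe was dim. It was well above background on 2 of 4 arrays after PMA-Ionomycin at T24, on 1 of 4 at T4, and on no mock-stimulated or LPS array. The measured level was -1.05, -1.10, -0.89 and -1.09 in mock at T24 and -0.45, -0.46, -0.78 and -0.19 after PMA-Ionomycin, and these groups did not overlap. PRKCA was higher after PMA-Ionomycin at T24 (adjusted p = 0.0144), in 4 of 4 rabbits, and the measured differences within slides were 0.54, 0.59 and 0.62. The mock-stimulated arrays, and 2 of 4 PMA-Ionomycin arrays, give only upper limits, so the size of the change is not settled. Against LPS at T24 (-0.94, -0.81, -0.88 and -1.19) it was also higher (adjusted p = 0.0318). The call against mock was lost without rabbit 2 (adjusted p = 0.0888) and without rabbit 5 (adjusted p = 0.0949), and the call against LPS without rabbit 1, 2 or 5 and in the deposited log2 table. With the processed signal, from which background had been subtracted, the measured difference from mock was 2.13, and after normexp 0.35, in place of 0.56.

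At T4 PRKCA had -1.13, -0.65, -0.36 and -0.585 after PMA-Ionomycin and -0.50, -1.18, -1.04 and -1.10 in mock (adjusted p = 0.347). No mock-stimulated array and 1 PMA-Ionomycin array were well above background, so no fold is given. Rabbit 1 went against the other rabbits, and without it PRKCA passed the test (adjusted p = 0.0369).

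PRKCE and PRKCI gave no call against mock or against LPS at either time. PRKCE encodes PKC epsilon, a calcium-independent isoform known from macrophage responses to LPS. Most of its probes were above background on at most 2 of 4 arrays of any group, and after PMA-Ionomycin at T24 none was on any array. The level there was -0.90, -0.82, -0.99 and -1.05 against -0.61, -0.88, -0.48 and 0.08 in mock, where most probes were above background on 1 of 4 arrays. The groups overlapped, and the adjusted p of 0.0529 did not pass. It lay close to the threshold, and PRKCE passed it in 6 of 18 alternative settings, among them the one that blocked on rabbit (adjusted p = 0.0395) and the processed signal (adjusted p = 0.002). No fold is given, because most arrays of both groups were near background. PRKCI encodes PKC iota, an atypical isoform of cell polarity, and the only isoform measured here that responds to neither diacylglycerol nor calcium. Its level was -0.34, -0.18, -0.54 and -0.21 after PMA-Ionomycin at T24 and -0.56, -0.52, -0.24 and 0.50 in mock (difference -0.11, SE 0.17, adjusted p = 0.744, 95% interval -0.46 to 0.24). After PMA-Ionomycin at T4 it was -0.12, -0.08, -0.12 and -0.11, just above all 4 mock-stimulated values of -0.13, -0.33, -0.41 and -0.23, with a difference of 0.17 that did not pass (adjusted p = 0.628). Groups did not overlap for 21.4% of all genes in this comparison. After LPS its differences from mock were -0.01 at T4 and -0.19 at T24 (adjusted p = 0.976 and 0.825).

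**Figure D3:**
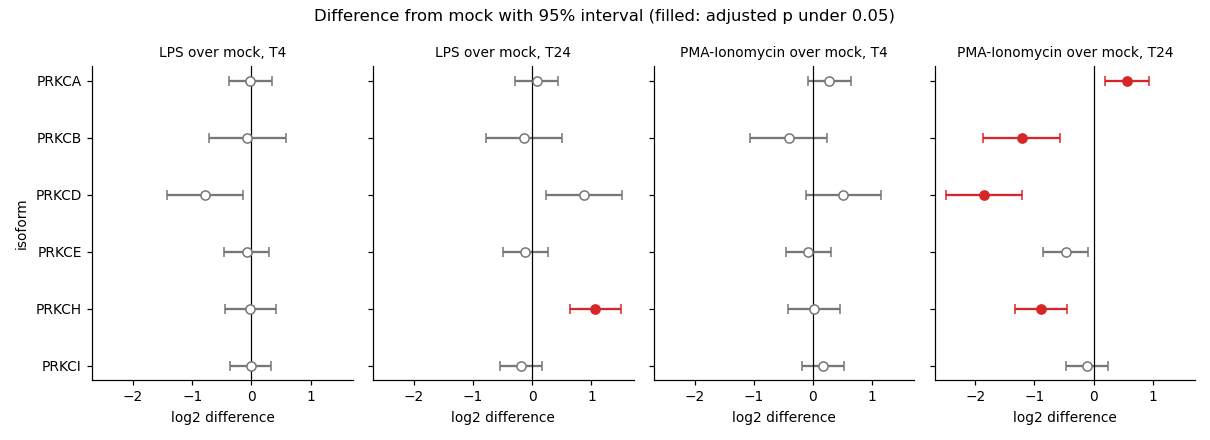
Log2 difference from mock (x axis) with its 95% interval from the limma fit for the 6 isoforms (y axis), in 4 panels for LPS and PMA-Ionomycin at T4 and T24. Filled points had an adjusted p under 0.05: PRKCH after LPS at T24, and PRKCA, PRKCB, PRKCD and PRKCH after PMA-Ionomycin at T24.

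The 6 groups were placed in the order of their means, and neighbours in that order were compared. Neighbours chosen this way have the smallest gaps, so a test that did not pass does not show equal levels. PRKCH had LPS at T24 on top, above mock at T24 (1.07, adjusted p = 0.00701). PMA-Ionomycin at T24 was at the bottom, below LPS at T4 (0.68, adjusted p = 0.0124). Among the groups between them no neighbours passed the test. PRKCD ran from LPS at T24 (4.53) through PMA-Ionomycin at T4 (3.77), mock at T24 (3.65), mock at T4 (3.25) and LPS at T4 (2.47) to PMA-Ionomycin at T24 (1.80). No neighbours in this order passed the test (adjusted p from 0.0629 to 0.782), although its 2 ends differed (-2.73, adjusted p = 1.3e-07). For PRKCA, PRKCB, PRKCE and PRKCI no neighbours in the order passed the test either. In mock-stimulated PBMCs none of the 6 isoforms was DE between T24 and T4, by limma (0 at an unadjusted p under 0.05), where 12.6% of all genes were DE.

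The levels of markers of blood cell types in the same samples are given beside these values. After PMA-Ionomycin at T24, 33.6% of all genes were DE, 11.5% lower and 22.1% higher. Of 12 monocyte markers, 8 were lower and 2 higher, with a median difference of -1.40 against 0.03 over all genes. The median level of the list was 0.84 to 1.12 on these arrays, 1.275 to 3.01 in mock and 2.575 to 2.845 after LPS at T24. Of 7 B cell markers, 3 were lower and 1 higher (median difference -0.29), and the list median was 3.05 to 3.23 after PMA-Ionomycin against 3.48 to 5.06 in mock. The highest of these mock values was that of rabbit 5, the array on which PRKCB also was highest. Of 12 T cell markers, 3 were lower and 1 higher (median difference -0.05), a share DE close to that of all genes. The defining markers CD4 and CD28 were well above background on only 5 and 4 of 24 arrays. Of 6 neutrophil markers, 3 were lower, and the list median was -0.24 to -0.05 after PMA-Ionomycin against 1.54 to 2.19 in mock. After LPS at T4, 2 of 12 monocyte markers were lower and 7 had an unadjusted p under 0.05 by limma (median difference -0.74). Of all 28911 genes, 1.02% were DE and 4023 had an unadjusted p under 0.05 there. For the change of the LPS effect with time the median of the monocyte list was 0.58, with 0 markers DE and 6 at an unadjusted p under 0.05. Of all genes, 1.94% were DE and 4724 had an unadjusted p under 0.05 for this change. After LPS at T24, where PRKCH was higher and 1.22% of all genes were DE, 1 monocyte marker was higher and 1 lower of 12. No B or T cell marker was DE. Of 6 neutrophil markers, 2 were lower, and the list median was 0.447 to 1.055 against 1.54 to 2.19 in mock, without overlap. Among the lists with a measured marker none lacked all its signal, and only GP1BA among platelet, MMP8 among neutrophil and EPB42 among erythrocyte markers were above background on no array. The part of cell composition in the PKC values was not tested.

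By Pearson's r over the 24 arrays, which come from 4 rabbits and 6 groups, the genes most like each isoform were sought among 5245 genes with a symbol, as a description. PRKCD was closest to PHC2 (0.94), ZNF513 (0.92) and MGAT5 (0.92). PRKCB was closest to EPB41 (0.93), MAP3K1 (0.91) and JUP (0.90), and PRKCH to ABCA1 (0.92), SIRPB2 (0.91) and NEURL1 (0.90). The closest were XPO4 (0.78), SOCS4 (0.78) and BTF3L4 (0.77) for PRKCA, CCDC112 (0.78), ZSCAN18 (0.74) and SLU7 (0.74) for PRKCE, and ZNF131 (0.69), PHTF2 (0.68) and DOCK9 (0.61) for PRKCI.

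Genes around PKC were taken from lists of the enzymes that make and remove diacylglycerol, its other receptors, PKC substrates and regulators, and the PKC-related kinases N. Of 48 genes, 33 were found. After PMA-Ionomycin 6 were higher and 6 lower at T4, and 2 higher and 12 lower at T24, with medians of 0.06 and -0.03 against 0.05 and 0.03 over all genes. Over all genes, 13.4% were higher and 9.34% lower at T4, and 22.1% were higher and 11.5% lower at T24. After LPS 1 gene was lower at T4, PLCB2 (adjusted p = 0.0458), a count that fell to 0 with any 1 rabbit or the LPS array of rabbit 4 at T4 left out and in 5 other settings, and none was DE at T24 by limma, with 5 at an unadjusted p under 0.05.

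Upstream of PKC, 2 of 5 phospholipases C fell after PMA-Ionomycin at T24. PLCB2, the form of blood cells that G proteins activate, went from 0.85 ± 0.12 in mock to -0.45 ± 0.08 (difference -1.31, SE 0.16, adjusted p = 4.4e-07). PLCD3 was above background on no PMA-Ionomycin array and was at least 1.745-fold lower, with each of these arrays given the lowest signal that counted as well above background on it, or its own signal where that was higher. Of 6 diacylglycerol kinases, which turn diacylglycerol into phosphatidic acid, DGKD rose at T4 (difference 0.94, SE 0.18, adjusted p = 0.000333) and DGKE was at least 1.855-fold lower at T24.

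In the list of other receptors of diacylglycerol, 1 of 9 genes was higher and 4 lower at T4, and 4 were lower at T24. How well each of them binds diacylglycerol was not measured. RASGRP2, an activator of the GTPase Rap, had 3.15 ± 0.31 against 4.93 ± 0.19 in mock at T4, and 2.47 ± 0.53 against 4.76 ± 0.48 at T24 (differences -1.78 and -2.30, both in 4 of 4 rabbits). PRKD2, protein kinase D2, which PKC activates, fell by 2.38 at T4 and by 1.39 at T24 on the log2 scale. CHN2, a Rac GTPase-activating protein, fell by 0.49 and 1.34.

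Of 12 substrates, anchors and regulators, 4 were higher and 2 lower at T4, and 2 higher and 5 lower at T24. MARCKS, a membrane protein that PKC phosphorylates, fell by 1.20 at T4 and by 0.67 at T24 on the log2 scale. PLEK, pleckstrin, the major PKC substrate of platelets, rose by 1.34 at T4 (SE 0.44, adjusted p = 0.0287). Beside it, the platelet list had a median level of -0.37 to 0.49 after PMA-Ionomycin at T4 and 0.71 to 1.96 in mock, with 5 of 6 markers lower. SQSTM1, an adaptor that binds the atypical isoforms, rose by 1.78 at T4 (adjusted p = 0.000168) and was lower at T24 (difference -1.34, adjusted p = 0.00172). PKN2, the only PKC-related kinase N found, did not pass the test (differences 0.01 and -0.03).

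**Figure D4:**
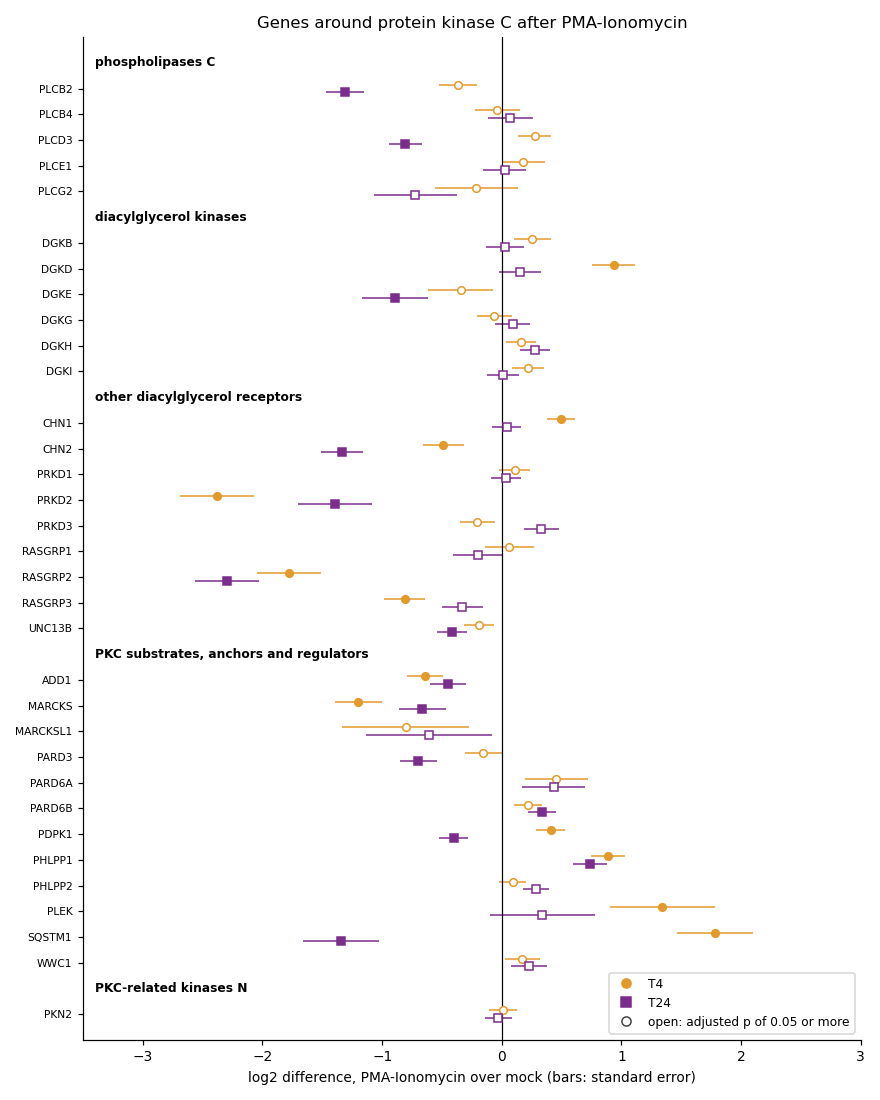
Log2 difference after PMA-Ionomycin over mock (x axis, bars are standard errors) at T4 (circles) and T24 (squares) for the 33 genes around PKC that were found, by list (y axis). Filled symbols had an adjusted p under 0.05: 12 genes at T4 and 14 at T24.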

How the data were processed

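RNA of 24 PBMC cultures was labelled with 1 dye and hybridised to a custom Agilent rabbit array of 61657 non-control spots and 42089 probes, whose positions are on oryCun2. The deposited scanner files give the intensity of each spot, as the authors obtained it with Agilent Feature Extraction 10.7.3.1, without scaling between arrays. The file headers name the software's 1-colour protocol and the study's methods its 2-colour protocol. The deposited log2 table holds the authors' log2 median signals minus a constant per array, with array medians from -1.11 to -0.81, and was used as an alternative.

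The log2 median signal minus the array's median was averaged over spots, probes and genes, without outlier spots (280 to 370 per array). Probes were named through their RefSeq accession (11029), gene number (8500), the study's list of added genes (409), a symbol in the description (272) or the files' gene name (47), using the RefSeq annotation of mOryCun1.1, and 21832 kept their identifier only. PRKCH was named by its gene number, PRKCD by its description and the other isoforms by accession. A fit of the 6 group means over all 24 arrays (limma 3.58.1, lmFit and eBayes, R 4.3.3) gave differences, and p-values were adjusted by the Benjamini-Hochberg method over 28911 genes. The fit was tested on simulated data. Alternatives covered scaling, signal column, background correction, dim probes, outlier spots, arrays fitted, blocks, array weights, the variance prior, single probes and left-out rabbits or arrays.

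Samples of a rabbit come from the same animal, so that the rabbit number pairs them. Deviations from the group means had a median correlation of 0.229 over 60 pairs of arrays of the same rabbit and -0.0752 over 180 pairs of different rabbits. The number of arrays limits the precision. The isoforms and gene lists were chosen with earlier results of these data known. Some genes of this family and pathway are not reported here. All isoforms with a probe were named, with values for at most 3 DE genes of each pathway list (those with the largest difference) and the 3 genes most like each isoform among genes well above background on at least 20 arrays.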

Additional observations from a re-analysis of the deposited data

Results flagged for a closer look

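The effect of a stimulation differed between T4 and T24 for PRKCD and PRKCH, by the limma test of the difference itself. For PRKCD the LPS effect moved by 1.66 on the log2 scale from T4 to T24 (adjusted p = 0.048), a call kept in 11 of 19 alternatives and in none that left out a rabbit, and the PMA-Ionomycin effect by -2.37 (adjusted p = 0.000237), kept in 19 of 19. For PRKCH the PMA-Ionomycin effect moved by -0.91 (adjusted p = 0.0281), kept in 15 of 19. In none of the 36 sets of 4 arrays, 1 for each isoform and group, did a single array stand apart by Dixon's criterion.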

How the results depend on the processing

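Of 13 called differences of isoforms, 6 were called under every alternative run, and of 41 that were not called, 36 stayed so. No called difference changed sign. The replicate block, which pairs samples by rabbit, raised the count of isoforms whose LPS effect differed between times from 1 to 2, and gave 2 pathway genes for LPS against mock at T4 and 2 at T24, in place of 1 and 0. For isoforms, LPS against mock at T24 gave 0 with the processed signal and 0 with only the arrays of the comparison, and 0 to 1 when arrays or rabbits were left out. PMA-Ionomycin against mock at T4 gave 0 to 1 with rabbits left out. PMA-Ionomycin against LPS at T4 gave 2 after quantile normalization and 0 to 1 with rabbits left out. The change of the LPS effect with time gave 0 with the processed signal, the deposited log2 table or only the arrays of the comparison, 2 with dim probes left out or array weights, and 0 to 1 with rabbits or arrays left out. The change of the PMA-Ionomycin effect with time gave 1 after quantile normalization, 1 after normexp, and 1 to 2 with rabbits left out. For pathway genes, LPS against mock at T4 gave 0 after quantile normalization, with the processed signal, the deposited log2 table, only the arrays of the comparison, or a trended robust prior, 2 with the slide as a block or array weights, and 0 to 1 with rabbits or arrays left out. PRKCB from its 3′ end probes alone differed by -0.63 between PMA-Ionomycin and LPS at T24 (adjusted p = 0.123), so that the call was lost. Over all genes, the share of higher calls after PMA-Ionomycin at T24 was 65.8%, against 46.3% with the processed signal, 51.1% in the deposited table, 55.3% after quantile normalization and 52.9% after normexp, and the processed signal shifted the median of all genes by -0.29. The number of genes DE after LPS went from 296 to between 0 and 1230 at T4 and from 354 to between 47 and 941 at T24. The settings that leave out single arrays and those that split the PRKCB probes were chosen after seeing the data. The causes were not tested. Signals near background limit PRKCA and PRKCE.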
